A study of Mus musculus with 12 samples.

Results

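Semaphorins, plexins and neuropilins were described in brain cells of aged mice. The 31 genes were those whose mouse symbol reads Sema3 to Sema7 with a letter from a to g, Plxna to Plxnd with a digit, or Nrp1 or Nrp2, out of 41388 genes in the count tables. They comprised 20 semaphorins, of which 7 were class 3, 9 plexins and 2 neuropilins. Each was measured in 12 RNA libraries of 8 mice. All mice were on a C57BL\6 background and, per the strain label, carried Bmal fl/fl, loxP-flanked alleles of the clock gene Arntl, with ALDH1L1-CreERT2, a Cre recombinase activated by tamoxifen and driven by the astrocyte promoter of Aldh1l1. The strain label is the same for all mice, and the genotype label divides them into Cre+ knockout (KO) and Cre- wildtype (WT). Both received tamoxifen by mouth, 2 mg a day for 5 days when 2 months old, and their brains were collected at the age of 20 months. Cells bound by magnetic beads against the astrocyte surface antigen ACSA-2 formed the astrocyte fraction (4 KO and 4 WT mice), and the unbound cells of 2 of the KO and 2 of the WT mice formed the flowthrough. A library is called here by its label, its fraction and the number of its mouse.

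Semaphorins are extracellular cues that steer axons, migrating cells and vessels. Class 3 proteins are secreted, classes 4 to 6 span the membrane and Sema7a is held by a lipid anchor. Plexins are their signalling receptors, acting through small GTPases and the cytoskeleton, and neuropilins are co-receptors that most class 3 semaphorins need. In the adult brain, astrocytes, microglia, oligodendrocytes, vessels and neurons all express members of these families.

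The deletion itself did not show in the gene counts. Arntl had 401 to 645 counts in KO and 239 to 374 in WT astrocytes, a log2 fold change of 0.66 ± 0.19 (SE; adjusted p = 0.473 in edgeR), so KO and WT mean libraries labelled so throughout. The count sums all exons, and which exons are flanked by loxP is not stated in the sources used here. Astrocyte libraries KO 73 and WT 78 had 2411 and 1133 Xist counts and at most 3 Ddx3y counts, the female type, while the other 10 libraries, every flowthrough library among them, were of the male type. Sex was therefore not balanced between the fractions. The 10 astrocyte markers were all higher in the astrocyte fraction (median log2 difference 1.87). So were all 10 neuron markers (1.65), 5 of 10 oligodendrocyte markers and 4 of 6 oligodendrocyte precursor markers (0.67). Microglia (10 of 10, median -3.57), endothelial (10 of 10, -1.08), choroid plexus (6 of 6, -2.30), granulocyte (6 of 6, -5.90) and mural markers (3 of 6, -0.96) were lower there. Total counts were 38.7 to 51.6 M (M, a factor of 1000000), so that 3 counts, taken as the floor, equal 0.0582 to 0.0775 CPM.

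All 31 members passed the filter on low counts in every comparison, 30 of them with at least 3 counts in all 12 libraries and Sema6c in 11. Levels are counts per 1000000 (CPM) scaled by TMM factors over the 12 libraries, and per kilobase of exon where genes are compared with each other. Per kilobase, Nrp1 had the highest level in both fractions, 8.59 ± 2.41 CPM per kilobase in astrocytes (SD, n = 8) and 21.4 ± 3.95 in flowthrough (SD, n = 4). In astrocytes it was followed by Plxnb1 (6.18 ± 1.16), Plxnb2 (5.68 ± 1.59), Sema6d (3.83 ± 0.412) and Sema4a (3.83 ± 0.840), and in flowthrough by Plxnb2 (16.4 ± 2.16) and Sema4d (14.8 ± 2.47). Neighbours in the astrocyte order overlapped in range all the way down to Sema3f (0.248 ± 0.107), and a gap appeared only before Sema6c (0.0630 ± 0.0150). In flowthrough the 3 leading genes stood clear of Sema3b (3.72 ± 0.843), the next in order, and Sema6c was again apart at the bottom (0.0213 ± 0.0157).

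**Figure D1:**
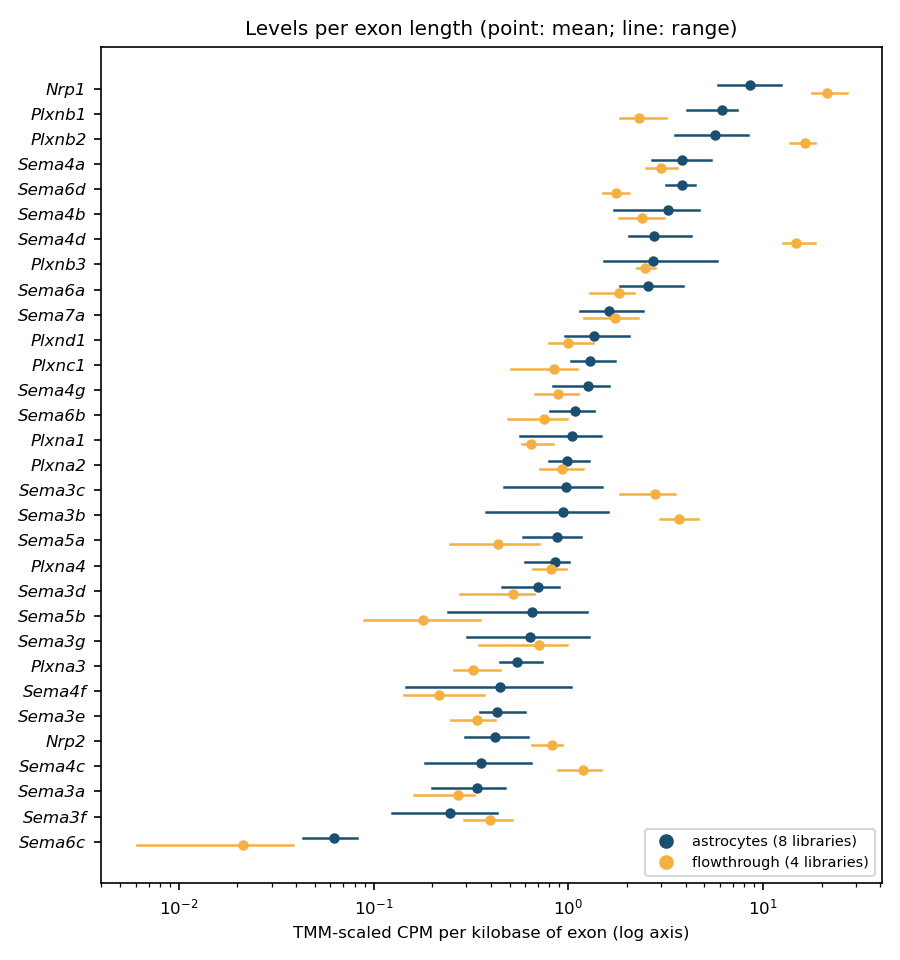
Level of each of the 31 genes in the 8 astrocyte and 4 flowthrough libraries, in TMM-scaled CPM per kilobase of exon on a log axis. Points are means and lines run from the lowest to the highest library; Nrp1 leads in both fractions, and Plxnb2 and Sema4d lie far higher in flowthrough.

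Plxnb2 held the highest share of the plexin level in flowthrough, while Plxnb1 and Plxnb2 held shares with overlapping ranges in astrocytes. Plxnb2, a receptor of class 4 semaphorins, made up 63.6% ± 5.64 of the summed plexin level per kilobase in flowthrough (SD, n = 4) against 27.2% ± 5.8 in astrocytes (SD, n = 8). Plxnb1, the receptor of Sema4d, made up 9.0% ± 2.59 and 30.2% ± 6.15. Sema4d itself held 38.8% ± 4.21 of the summed semaphorin level in flowthrough and 10.2% ± 2.28 in astrocytes. Nrp1 took nearly the whole neuropilin level in both, 96.2% ± 0.485 and 95.3% ± 1.19. These shares were chosen after the values were seen and were not tested. The tests of the genes themselves follow.

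Sema5b lies on chromosome 16 at 35541145 to 35664732 on the plus strand. Its 250 bases before the RefSeq start are shown because it was the one member that differed between KO and WT astrocytes. A window each of Sema4b and Sema6d is shown because they were the only 2 of the 37 windows, from 26 members, that hold the canonical E-box CACGTG. BMAL1 binds this site type with CLOCK. Both genes have another window without it, at chr7:80186620-80186869 for Sema4b and chr2:124653331-124653580 for Sema6d. The Sema4b window shown lies inside the gene, which begins at 80186841. The Sema5b window also runs into its gene, which begins at 35541145. Capitals mark CACGTG and the GC box GGGCGG (both searched on both strands; RefSeq, GRCm38.p6).
Sema5b, chr16:35541112-35541361, plus strand: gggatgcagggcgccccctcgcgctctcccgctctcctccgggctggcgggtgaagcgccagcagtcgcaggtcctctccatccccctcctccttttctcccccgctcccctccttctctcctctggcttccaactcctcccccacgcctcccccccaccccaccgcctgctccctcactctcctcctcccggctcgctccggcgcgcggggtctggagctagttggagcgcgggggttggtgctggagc
Sema4b, chr7:80198338-80198587, plus strand: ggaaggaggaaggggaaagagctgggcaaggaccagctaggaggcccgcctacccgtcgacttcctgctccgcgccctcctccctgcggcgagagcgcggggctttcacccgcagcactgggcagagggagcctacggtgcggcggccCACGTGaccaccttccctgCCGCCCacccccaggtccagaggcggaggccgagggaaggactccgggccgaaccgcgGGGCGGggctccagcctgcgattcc
Sema6d, chr2:124089719-124089968, plus strand: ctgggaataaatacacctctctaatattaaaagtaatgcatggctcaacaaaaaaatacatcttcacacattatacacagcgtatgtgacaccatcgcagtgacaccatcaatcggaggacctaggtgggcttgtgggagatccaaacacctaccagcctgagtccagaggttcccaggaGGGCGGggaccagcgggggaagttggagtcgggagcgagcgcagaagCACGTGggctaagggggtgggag
The E-box was in 5.41% of the members' windows and 6.02% of all 32851 windows. The GC box was in 27 of 37 (73%), against 32.7% of all windows. The members' windows had a median GC content of 64% against 52.4%. TAGGTCA, a site type of REV-ERB and ROR receptors, and the TATA box TATAAA were in 0 of the members' windows, against 2.23% and 12.4% of all. The Sema5b window held neither the E-box nor the GC box, so it has no capitals. Windows of 1 gene can overlap, and a match is a description of letters, not a site.

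The comparison of the fractions asks which members differ between captured astrocytes and the remaining cells. Its main fit took the 12 libraries as independent, although 4 of the mice gave both fractions. A fit with the mouse as a block was an alternative. In edgeR's quasi-likelihood test with Benjamini-Hochberg adjustment over 20997 genes, 16 of the 31 members passed an adjusted p of 0.05 (51.6%), where 49.2% of all genes did. Of these 9 were higher in astrocytes (24.8% of all genes were) and 7 lower (24.4% of all genes). Both neuropilins were lower. Among plexins 4 of 9 were higher and 1 lower, among class 3 semaphorins 2 of 7 were lower, and among the other semaphorins 5 of 13 were higher and 2 lower. The members' median log2 difference was 0.35, against 0.0040 over all genes, and 21 of 31 were above 0, as were 50.2% of all genes. The ranges of the fractions were apart for 10 of the 31 members, 3 higher and 7 lower in astrocytes, where 29.2% of all genes were apart, 12.2% higher and 17.0% lower. In bulk RNA, fewer cells of a type and less RNA per cell cannot be told apart.

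**Figure D2:**
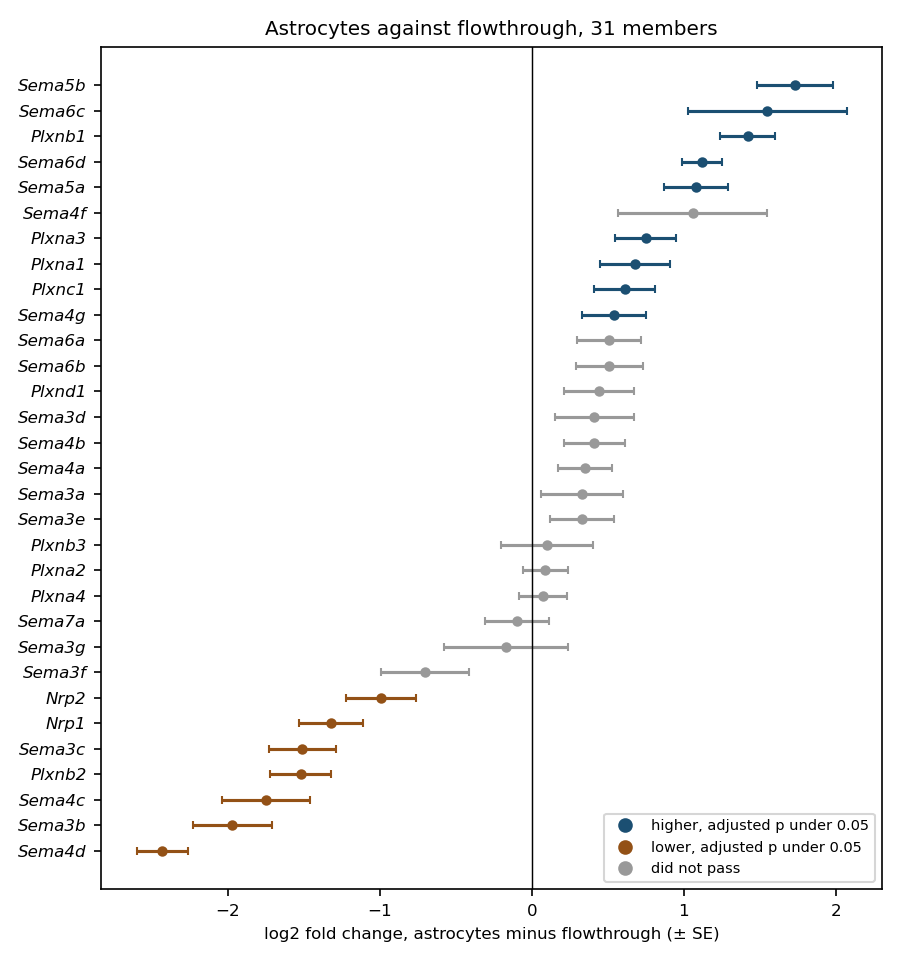
Log2 fold change between the astrocyte and flowthrough libraries for the 31 genes, with standard errors, from the edgeR fit of 12 libraries. Colour marks the 9 genes that were higher and the 7 that were lower at an adjusted p under 0.05; Sema5b is at the top with 1.73 and Sema4d at the bottom with -2.43.

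Receptors and co-receptors are taken first. Nrp1, which binds class 3 semaphorins and VEGF, ranged from 34.5 CPM to 72.5 CPM in astrocytes with a median of 45.3, and had 128, 114, 105 and 158 CPM in flowthrough WT 56, WT 64, KO 60 and KO 132. Its log2 difference was -1.32 ± 0.21 (SE; adjusted p = 4.2e-04). Nrp2, the co-receptor that Sema3f prefers, ranged from 3.51 to 7.39 CPM with a median of 4.34, against 9.83, 10.7, 7.70 and 11.1 CPM in the same order of flowthrough libraries (-0.99 ± 0.23, adjusted p = 0.00393). Every flowthrough library lay above every astrocyte library for both neuropilins, although for Nrp2 the astrocyte library KO 73 (7.39) came close to flowthrough KO 60 (7.70).

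The B plexins moved in opposite directions. Plxnb1 ranged from 36.6 to 65.7 CPM in astrocytes (median 59.2) and had 20.8, 16.6, 28.3 and 16.9 CPM in flowthrough WT 56, WT 64, KO 60 and KO 132, a log2 difference of 1.42 ± 0.18 (adjusted p = 1.0e-04). Plxnb2 ranged from 25.1 to 59.7 CPM (median 39.0) against 127, 132, 98.2 and 111 CPM (-1.52 ± 0.20, adjusted p = 1.4e-04). Neither gene overlapped between the fractions, and in each of the 4 mice that gave both fractions Plxnb1 was higher and Plxnb2 lower in astrocytes. The third B plexin, Plxnb3, did not pass (0.10 ± 0.30, and -0.11 without KO 73) and had its highest level, 37.8 CPM, in astrocytes KO 73.

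The other plexins that passed differed less. Plxna3, which serves with Nrp2 in Sema3f signalling, ranged from 3.51 to 5.77 CPM in astrocytes (median 4.07) and had 2.05, 2.49, 2.17 and 3.52 CPM in flowthrough WT 56, WT 64, KO 60 and KO 132 (0.75 ± 0.20, adjusted p = 0.00788). Plxna1, a receptor of class 6 semaphorins, ranged from 5.07 to 13.4 CPM (median 8.87) against 5.28, 5.24, 7.52 and 5.32 CPM (0.68 ± 0.23, adjusted p = 0.0270). Plxnc1, the receptor of Sema7a, ranged from 8.10 to 13.7 CPM (median 9.69) against 7.19, 6.65, 8.67 and 3.98 CPM (0.61 ± 0.20, adjusted p = 0.0248). Ranges overlapped for all of them. Plxna1 and Plxnc1 missed the threshold without flowthrough KO 132 (adjusted p = 0.124 and 0.0990), WT 56 (0.0725 and 0.0587) or WT 64 (0.0882 and 0.0982), and in KO libraries only (0.453 and 0.296). Plxnc1 also missed with library size scaling (0.46, adjusted p = 0.0631) and in the 4 mice with both fractions without a block (0.0925). Plxna1 shares 10.7% of its exon bases with an annotated antisense gene, so its reads are uncertain without strand. Plxna2, Plxna4 and Plxnd1 did not pass (0.089 ± 0.15, 0.074 ± 0.16 and 0.44 ± 0.23), and with mouse as a block Plxnd1 did (0.41, adjusted p = 0.0474).

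Among the ligands, Sema4d differed most. Sema4d, a membrane protein first known from lymphocytes, ranged from 13.3 to 27.4 CPM in astrocytes (median 16.1) and had 88.5, 91.5, 82.2 and 118 CPM in flowthrough WT 56, WT 64, KO 60 and KO 132. That is a log2 difference of -2.43 ± 0.17 (adjusted p = 6.7e-06), or 5.38-fold, and it ranged from -2.92 to -2.41 within the 4 mice. Sema4c, a ligand of Plxnb2, ranged from 0.698 to 2.45 CPM (median 1.25) against 3.37, 5.62, 4.63 and 4.52 CPM (-1.75 ± 0.29, adjusted p = 5.2e-04). Sema4d was thus lower in the fraction in which its receptor gene Plxnb1 was higher. Plxnb2, given above as a receptor of class 4 semaphorins, was lower in that fraction too (-1.52 ± 0.20). Sema4c shares 9.62% of its exon bases with a transcript on the opposite strand, so part of its count is uncertain. Sema4g, also a Plxnb2 ligand, ranged from 4.08 to 7.91 CPM in astrocytes (median 6.18) against 3.29, 3.90, 5.47 and 4.49 CPM in flowthrough. It was at the threshold (0.54 ± 0.21, adjusted p = 0.0494) and passed in only 8 of 23 alternative fits (adjusted p 0.00595 to 0.582). Leaving out any single library other than astrocytes KO 62 or KO 73 ended the call.

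Of the secreted class 3 ligands, Sema3b and Sema3c were lower in astrocytes. Sema3b ranged from 1.60 to 6.79 CPM (median 3.75) and had 18, 19.7, 12.6 and 13 CPM in flowthrough WT 56, WT 64, KO 60 and KO 132 (-1.97 ± 0.26, adjusted p = 1.5e-04). Sema3c, a guidance cue that binds both neuropilins, ranged from 3.32 to 10.6 CPM (median 7.11) against 13.2, 17.9, 23.5 and 25.4 CPM (-1.51 ± 0.22, adjusted p = 2.3e-04). Both were lower in each of the 4 mice and apart between the fractions. Sema3f, which lies 72.3 kb from Sema3b on chromosome 9 (Sema3b at 107597674 to 107609229, Sema3f at 107681502 to 107710475, GRCm38), ranged from 0.423 to 1.47 CPM (median 0.774) against 1.36, 1.74, 1.26 and 0.991 CPM. It did not pass in the main edgeR fit (-0.70 ± 0.29, adjusted p = 0.0653). In 6 of 23 alternative fits it did, DESeq2 among them (adjusted p = 0.0424). Sema3a, Sema3d, Sema3e and Sema3g lay between -0.17 and 0.41 and did not pass; Sema3d did with mouse as a block (0.52, adjusted p = 0.0463) or without flowthrough WT 56 (0.79, 0.0324).

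The other ligands that were higher in astrocytes were Sema5a, Sema5b, Sema6c and Sema6d. Sema6d, a ligand of Plxna1, ranged from 33.7 to 47.4 CPM (median 40.6) and had 21.5, 16.7, 20.2 and 15.9 CPM in flowthrough WT 56, WT 64, KO 60 and KO 132 (1.12 ± 0.13, adjusted p = 6.2e-05), with no overlap. Sema5a, a membrane semaphorin with thrombospondin repeats, ranged from 6.35 to 12.5 CPM (median 9.34) against 3.69, 2.67, 7.66 and 4.90 CPM (1.08 ± 0.21, adjusted p = 0.00159). Sema5b, its close relative, ranged from 1.70 to 8.81 CPM (median 4.02) against 0.633, 0.791, 2.48 and 1.21 CPM (1.73 ± 0.25, adjusted p = 2.2e-04). The Sema5b ranges of the fractions overlapped, with KO flowthrough 60 above 3 of the 4 WT astrocyte libraries. Within each label the fractions did not overlap, and it passed in WT libraries alone (1.5, adjusted p = 0.0120) and in KO libraries alone (1.98, 0.0215). Sema6c was the lowest member, at 0.259 to 0.490 CPM (median 0.407) in astrocytes against 0.181, 0.0594, 0.229 and 0.0361 CPM, where 2 counts was the lowest count (1.55 ± 0.52, adjusted p = 0.0281). It missed with mouse as a block (1.80, adjusted p = 0.0638), without flowthrough KO 132 (0.106) and without flowthrough WT 64 (0.127). Sema4f, with 0.748 to 5.28 CPM (median 2.00) against 0.977, 0.732, 1.90 and 0.847 CPM, did not pass (1.06 ± 0.49, adjusted p = 0.0965) and did with the block (0.73, 0.0444) or without KO 73 (1.2, 0.0409). Sema6a did not pass (0.51 ± 0.21) and did with the block (0.56, adjusted p = 0.0145), in the same 4 mice without a block (0.0283) or without astrocytes KO 62 (0.0438).

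**Figure D3:**
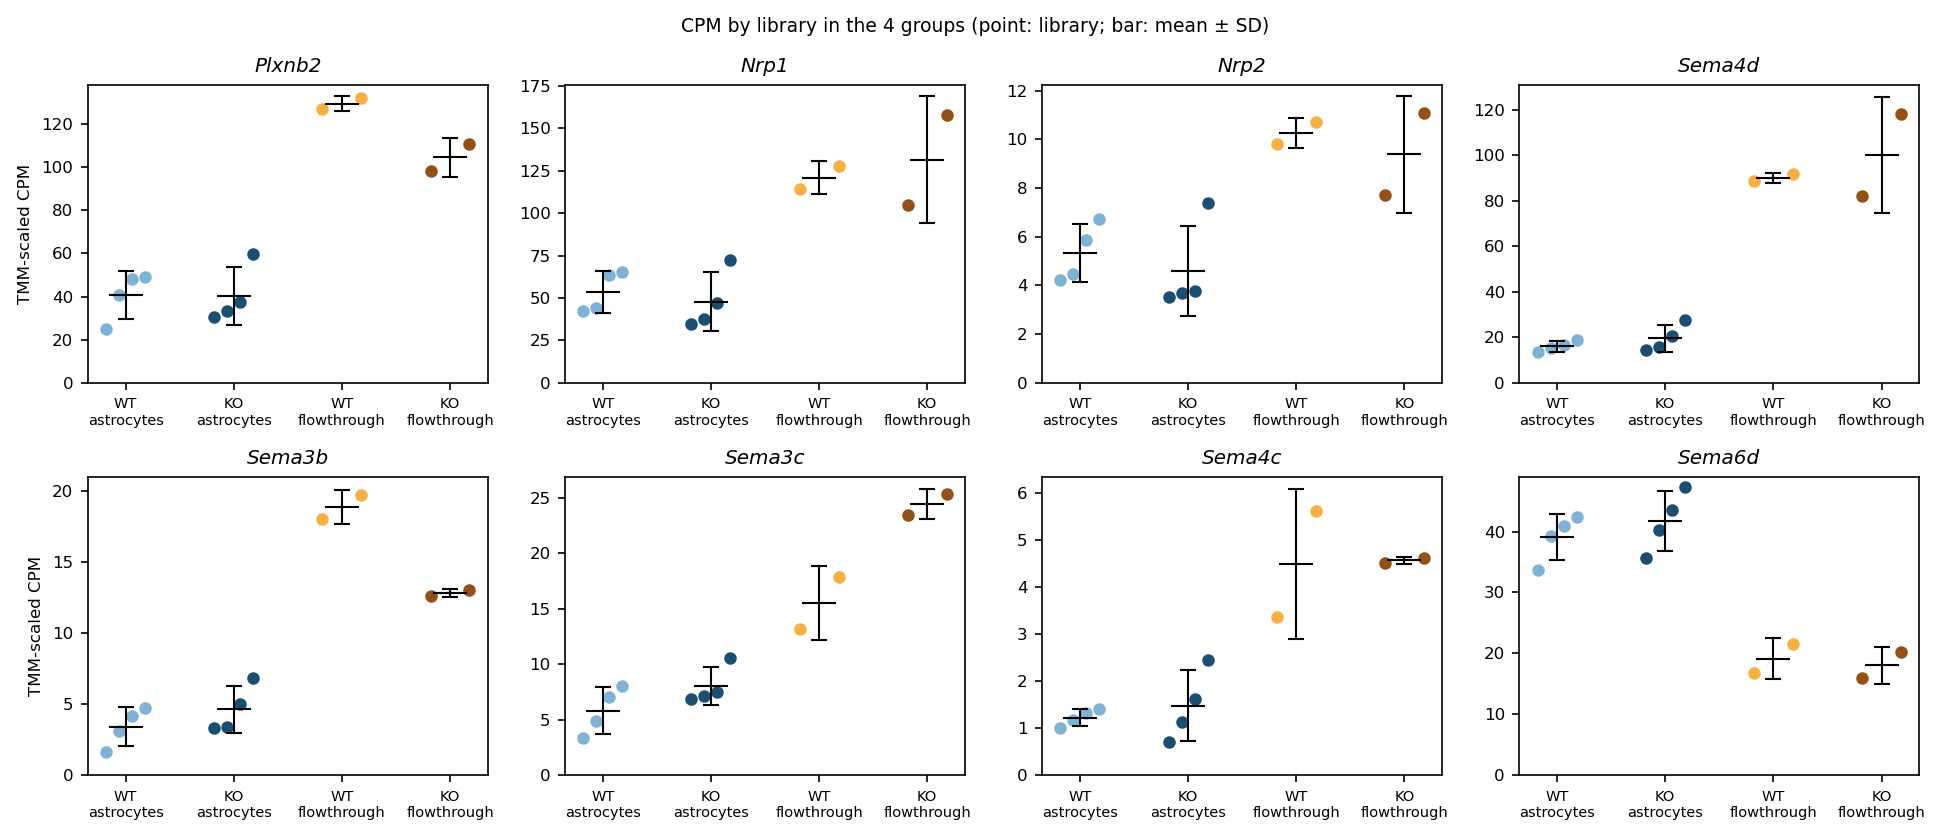
TMM-scaled CPM of Plxnb2, Nrp1, Nrp2, Sema4d, Sema3b, Sema3c, Sema4c and Sema6d in each library of the 4 groups; points are libraries, bars are mean and SD (n = 4 for astrocyte and n = 2 for flowthrough groups). Every flowthrough library lies above every astrocyte library for each gene shown except Sema6d, where it lies below.

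Among the 8 astrocyte libraries, KO 73 had the highest CPM for all 7 members that were lower in the astrocyte fraction. KO 73 also had the highest summed level of the 10 microglia markers, 3076 CPM against 622 to 1249 in the other astrocyte libraries and 11946 to 19252 in flowthrough. Its sums were also the highest for choroid plexus (9252 CPM against 1793 to 5844), ependymal (755 against 35.1 to 503) and granulocyte markers (240 against 3.98 to 184), and the lowest for astrocyte (11462 against 16430 to 24071) and neuron markers (1512 against 1903 to 3486). Astrocytes WT 64, not KO 73, had the highest endothelial (678 against 563 CPM), mural (661 against 582) and fibroblast sums (107 against 96.8). These values were picked out after they were seen, and the part of the marker lists in the members' levels was not tested. Without KO 73 the log2 difference of Nrp2 was -1.15 and that of Sema3c -1.59, both called. Without KO 73 and WT 78 together, a choice made for the fractions and the interaction after seeing the data, 10 members were higher and 8 lower in astrocytes.

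Next, KO and WT astrocytes were compared, to see how the label relates to these genes in the captured cells. Sema5b was higher in KO, and it was the only member of 31 that passed in edgeR over 18527 genes (0.232% of all genes passed, 0.146% as higher and 0.0864% as lower). No member passed as lower, also by DESeq2 or limma-voom. At an unadjusted p under 0.05 there were 2 of 31 members (6.45%), Sema5b and Sema4b, against 5.37% of all genes. The members' median log2 fold change was -0.10, with 13 above 0 and 18 below, against 0.0044 over all genes, of which 50.8% were above 0.

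Sema5b is a membrane semaphorin known to repel neurites, for which Plxna1 and Plxna3 have been described as receptors. It had 1.88, 1.70, 1.94 and 2.54 CPM in WT astrocytes 56, 57, 64 and 78, and 8.81, 6.87, 5.50 and 7.72 CPM in KO astrocytes 60, 62, 73 and 132. Every KO library lay above every WT library, from the highest WT at 2.54 to the lowest KO at 5.50. The means were 2.01 ± 0.365 and 7.23 ± 1.4 CPM (SD; n = 4 in each group). The log2 fold change was 1.85 ± 0.22 (SE; 95% interval 1.35 to 2.35), that is 3.60-fold (edgeR adjusted p = 0.0122). These values rest on 58 to 108 counts per library in WT and 290 to 372 in KO. The call was lost without KO 132 (adjusted p = 0.0665), WT 56 (0.0634), WT 57 (0.0659) or WT 64 (0.0527), while the log2 fold change stayed between 1.73 and 2.09 in 16 alternative fits. Without KO 73 and WT 78, the female-type libraries, it was 2.09 (adjusted p = 0.00765). In the same comparison the microglia markers had a median of 0.55 (10 of 10 above 0) and oligodendrocyte markers 0.78 (10 of 10 above 0), with astrocyte markers at -0.16. Granulocyte (0.29), choroid plexus (0.27) and ependymal markers (0.16) were above 0 for all 6 genes of each list, and neuron markers were at -0.10. Summed microglia markers were 639 to 3076 CPM in KO and 622 to 1249 in WT, and oligodendrocyte markers 24348 to 38433 and 20335 to 26626. The microglia sum of 3076 was that of KO 73, and the next KO library, KO 132, had 1236. The part of these lists in the Sema5b difference was not tested.

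**Figure D4:**
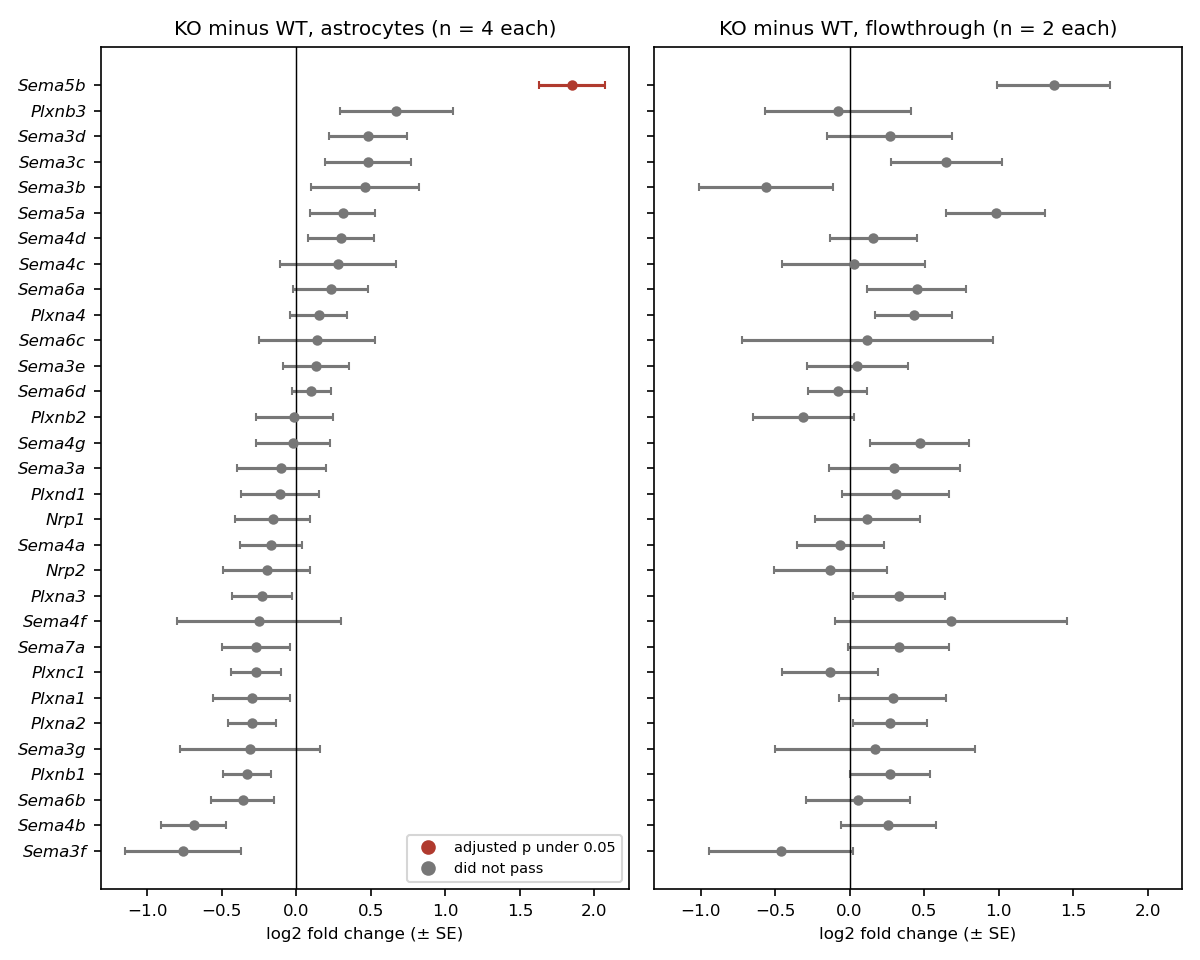
Log2 fold change between KO and WT for the 31 genes in astrocytes (left, 4 against 4 libraries) and flowthrough (right, 2 against 2), with standard errors. Sema5b, in red at 1.85 on the left, is the only gene that passed; on the right it is the largest at 1.37 but did not pass.

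Sema4b, a membrane semaphorin, had the next smallest p and did not pass. It had 25.5, 17.8, 25.3 and 18.6 CPM in WT astrocytes 56, 57, 64 and 78, and 9.29, 11.9, 16.6 and 16.1 CPM in KO astrocytes 60, 62, 73 and 132, a log2 fold change of -0.69 ± 0.22 (adjusted p = 0.568). Its groups did not overlap, and Sema5b was the other such member (2 of 31, where 4.03% of all genes were apart, 1.76% with KO higher and 2.27% with KO lower). Plxnb1 had 62.2, 63.4, 56.2 and 65.7 CPM in WT and 63.2, 45.8, 36.6 and 49.8 CPM in KO, in the same orders (-0.33 ± 0.16, adjusted p = 0.963). Those ranges overlapped through KO 60 alone.

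Sema3f had 1.13, 1.47, 1.05 and 0.612 CPM in WT and 0.521, 0.592, 0.936 and 0.423 CPM in KO (-0.76 ± 0.39, adjusted p = 0.971). Sema3d had 5.81, 2.99, 3.49 and 2.96 CPM in WT and 4.41, 5.62, 5.84 and 5.41 CPM in KO (0.48 ± 0.26, adjusted p = 0.972). Both overlapped between the labels. The remaining 26 members lay between -0.36 (Sema6b) and 0.67 (Plxnb3, whose KO 73 value of 37.8 CPM was the highest of the 8).

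**Figure D5:**
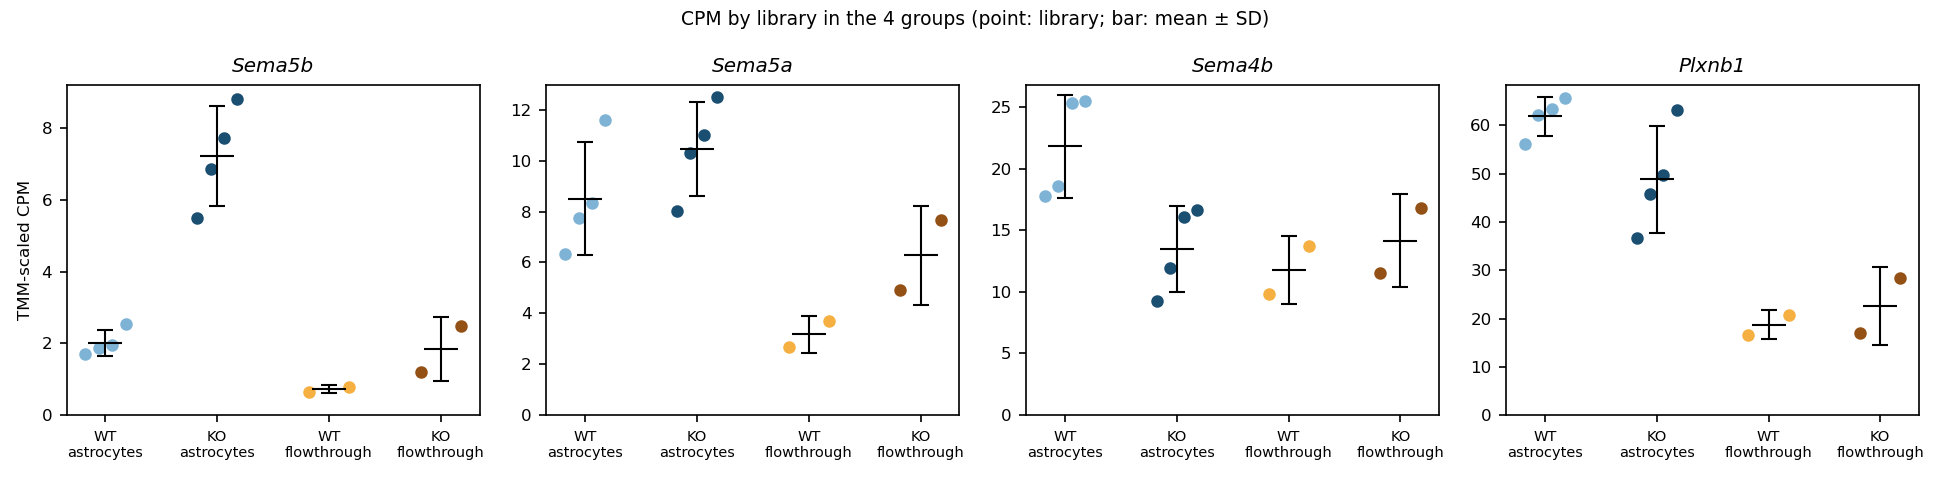
TMM-scaled CPM of Sema5b, Sema5a, Sema4b and Plxnb1 in each library of the 4 groups; points are libraries and bars are mean and SD (n = 4 for astrocyte and n = 2 for flowthrough groups). Sema5b is the gene that passed between KO and WT astrocytes, with KO at 5.50 to 8.81 and WT at 1.70 to 2.54.

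In flowthrough no member passed between KO and WT, in edgeR, DESeq2 or limma-voom (0.00476% of all genes passed in edgeR, 1 gene of 20997). At an unadjusted p under 0.05 there were 2 of 31 (6.45%), against 4.63% of all genes. The smallest p was that of Sema5b again, with 0.633 and 0.791 CPM in WT 56 and 64 and 2.48 and 1.21 CPM in KO 60 and 132 (1.37 ± 0.38, adjusted p = 1). Without flowthrough KO 60 its log2 fold change was 0.76, and without KO 132 it was 1.80. Sema5a followed with 3.69 and 2.67 CPM against 7.66 and 4.90 CPM (0.98 ± 0.33), its 2 KO libraries both above the WT ones (0.62 without KO 60). In astrocytes Sema5a had 6.35 to 11.6 CPM in WT and 8.03 to 12.5 CPM in KO (0.31 ± 0.22), which overlap.

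The other 3 members with small p in flowthrough were Sema3c with 13.2 and 17.9 CPM in WT and 23.5 and 25.4 CPM in KO (0.65 ± 0.37), Plxna4 with 9.48 and 8.43 CPM against 11.5 and 12.6 CPM (0.43 ± 0.26), and Sema4g with 3.29 and 3.90 CPM against 5.47 and 4.49 CPM (0.47 ± 0.33). KO lay above WT in both libraries for each of them. Of the 31 members 23 were above 0 with a median of 0.26, against 54.4% of all genes and 0.037, and groups were apart for 10 of 31 (33.6% of all genes), 7 with KO higher (17.1% of all genes) and 3 with KO lower (16.5%). Neuron markers had a median of 0.92 (10 of 10 above 0), astrocyte markers 0.44 (9 of 10) and endothelial markers 0.58 (10 of 10) in the same libraries. Summed neuron markers were 1480 and 634 CPM in flowthrough KO 60 and KO 132, against 637 and 460 in WT 56 and WT 64. Astrocyte sums were 8913 and 4037 against 4420 and 2982 CPM, in the same order. For both lists KO 132 thus lay within the WT range or just below its top. Endothelial sums were 1056 and 1192 against 590 and 893 CPM. Ependymal (-0.95), choroid plexus (-0.76) and granulocyte markers (-0.56) lay below 0 for all 6 genes of each list. The part of these lists in the members' values was not tested.

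Whether the label difference itself differed between fractions was tested by the interaction. No member passed (edgeR, DESeq2 and limma-voom), nor did any of the 20997 genes in edgeR, though DESeq2 called 8 genes outside the families. For Sema5b it was 0.47 ± 0.46 (95% interval -0.53 to 1.48). At an unadjusted p under 0.05 there was 1 of 31 members, Sema4b (-0.96 ± 0.39, adjusted p = 0.934), against 3.94% of all genes. The interaction was above 0 for 10 of 31 members and for 47.0% of all genes. The Sema4b label difference was negative in astrocytes and positive in flowthrough (0.26 ± 0.32). Plxna2 (-0.58 ± 0.31), Plxnb1 (-0.61 ± 0.33), Sema3b (1.01 ± 0.55) and Sema5a (-0.68 ± 0.41) came next and did not pass.

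A list of 56 other genes of semaphorin signalling was chosen from knowledge of the pathway, with earlier results of these data known. It held co-receptors, integrins and other semaphorin receptors, other ligands of neuropilins, CRMP and MICAL proteins, and GTPases with their regulators and kinases. Between KO and WT astrocytes none passed in edgeR or limma-voom and 2 in DESeq2, where DESeq2 called 184 genes in all; 6 of 56 had an unadjusted p under 0.05, against 5.37% of all genes. The smallest p values were those of Vegfa (-0.62 ± 0.16, adjusted p = 0.370), Hgf, the ligand of Met (-1.55 ± 0.42), the GTPase gene Rnd3 (0.56 ± 0.18), Met, a receptor kinase that couples to B plexins (1.19 ± 0.39), and Rnd2 (0.53 ± 0.21). In flowthrough none passed in the 3 tools (4 of 56 at an unadjusted p under 0.05, against 4.63% of all genes), with the smallest p at Chl1, a co-receptor of class 3 semaphorins (0.88 ± 0.22), Rnd2 (1.4 ± 0.39) and Fyn (0.78 ± 0.28). For the interaction none passed in the 3 tools either (2 of 56 unadjusted, against 3.94% of all genes).

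Between the fractions 24 of the 56 were higher and 14 lower in astrocytes, where 24.8% and 24.4% of all genes were. Chl1 had 34.6 ± 4.69 against 10.2 ± 3.75 CPM (1.83 ± 0.14, adjusted p = 1.0e-05). Vegfa (1.5 ± 0.15, adjusted p = 2.7e-05) and the exchange factor gene Farp1 (1.52 ± 0.16, 3.5e-05) were also higher. Trem2, a microglial receptor that forms a complex with Plxna1 (57.7 ± 30.3 against 621 ± 78.2 CPM, -3.44 ± 0.31), and its adaptor Tyrobp (-2.99 ± 0.28) were lower. Trem2 is also 1 of the 10 genes of the microglia list, which was lower as given above. Kdr (-1.35 ± 0.27) and Flt1 (-1.37 ± 0.29) are likewise in the endothelial list and were lower. The 14 lower genes are therefore not separate from the marker lists.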

How the data were processed

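RNA was measured in 12 libraries of 8 mice. Per the labels' protocols, Trizol lysates were purified on columns before SMARTer library preparation. The deposited files, 1 per library, give per gene a raw read count, a CPM and an RPKM column, per the file headers. The deposited CPM values equal count per total within 5.1e-11, and the deposited RPKM values are those CPM per kilobase of exon. STAR 2.5.1a, featureCounts 1.4.6-p5, Subread, bcl2fastq and GRCm38 are named per the submitters' processing notes; the strand and multi-mapping settings used are unknown here, being not given in the sources used. CPM and RPKM columns served for checks only. Symbols came from a reference name table (40254 of the identifiers matched) and the members' IDs were checked in GENCODE annotation.

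Counts were tested with edgeR 4.0.16 (R 4.3.3; glmQLFit and glmQLFTest, two-sided, TMM factors, filterByExpr, Benjamini-Hochberg over all genes; call at adjusted p under 0.05). KO and WT astrocytes used 8 libraries, all other comparisons 12 libraries with 4 group means. DESeq2 1.42.0 and limma 3.58.1 (voom), other scalings and filters, a mouse block in the 4 mice with both fractions and left-out libraries were alternatives. Titles give the same mouse number to both fractions of 4 mice, taken as the same animal; the correlations of deviations from the group means were -0.00664, 0.155, 0.352 and 0.251 for mice 132, 56, 60 and 64. CPM levels in the text are TMM-scaled over the 12 libraries. Named members are all those past the threshold in each comparison, where fewer than 5 passed the 5 with the smallest p, and between fractions also the 8 with the largest change in each direction. Promoter windows came from RefSeq, with chromosome 18, where Sema6a lies, left out (26 of 31 members had a window). The rule for members and the lists were chosen with earlier results of these data known. Floors cover counting error only, since no source used mentions molecular identifiers.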

Additional observations from a re-analysis of the deposited data

Results flagged for a closer look

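The 4 values of each member were checked in KO and in WT astrocytes, 62 groups in all, and in 3 of them 1 library stood far from the others. Chance gives this in about 1 of 20 groups. Nrp2 had 7.39 CPM in KO astrocytes 73, against 3.51 to 3.79 in the other KO libraries. Sema3c had 10.6 CPM in KO astrocytes 73, against 6.87 to 7.49. Plxnd1 had 14.6 CPM in KO astrocytes 60, against 6.95 to 8.10.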

How the results depend on the processing

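Between KO and WT astrocytes, the number of members higher in KO was 0 to 1 when each library was left out, and 1 under all other alternatives. Of the 80 values of the 5 named members there, 76 kept their direction and side of the threshold, and the 4 that did not are the Sema5b refits given above. Between the fractions, the number of members higher in astrocytes was 5 to 10 when each library was left out, with the lowest without flowthrough KO 132, and 3 in KO libraries only, where fewer libraries were fitted; it was 12 with the mouse as a replicate block. The number lower was 7 to 8 when each library was left out. Among all 23 alternative fits, Nrp2 and Sema4c each passed in 22, and the other members lower in astrocytes passed in all. The block was fitted only to the mice with both fractions, so it also left out the other libraries. In that fit Sema4f, Plxnd1, Sema3d and Sema6a passed and Sema6c missed, with no other call changed. Sema6a also passed in those mice without the block. For the interaction 0 members passed with the block. Of 413 values of named members between fractions 369 kept direction and side, 35 missed the threshold and 9 newly passed; among the other members 9 of 299 newly passed. These were the values of Plxnd1, Sema3d and Sema6a given above, Sema4a without astrocytes WT 57 (0.43, adjusted p = 0.0395), Sema6b without flowthrough WT 64 (0.78, 0.0205) and Sema4b in WT libraries only (0.89, 0.0229). No named member reversed its direction under any of the alternatives run; among the other members reversals occurred in 26 of 415, 29 of 492, 21 of 299 and 45 of 519 values of the 4 comparisons (KO against WT in astrocytes and in flowthrough, fractions, interaction), none of which had passed in the reported fit. With a filter of CPM of at least 1, Sema6c was not tested.

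Over all genes, the calls between KO and WT astrocytes were 43, against 184 with DESeq2, 28 with library size scaling and 12 to 37 with each library left out. In flowthrough the count was 1, against 22 with DESeq2, 0 with limma-voom or the 4 flowthrough libraries alone, and 0 to 5 with each library left out. Between fractions it was 10333, against 2818 in KO libraries only. For the interaction it was 0, against 8 with DESeq2. Library size scaling shifted the median of all genes by -0.15 between fractions and 0.11 for the interaction. Leaving out 1 flowthrough library leaves its group with 1 library, assumed to vary like the others. Sema6c, at 2 to 23 counts, is limited by depth.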
